A study of Mus musculus with 12 samples.

Results

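The genes described here are Dnah11, Tppp3 and 8 further genes linked to the axoneme, the microtubule shaft of motile cilia. The 8 are Dnah2, Dnah5, Dnah6, Dnah9, Dnah10, Dnah12, Ccdc39 and the transcription factor gene Foxj1. All 10 genes were taken by gene symbol from a deposited table of 55291 genes, and all 10 were present. The filter on low values left 19633 genes of the table and kept 10 of the 10. Dnah11 and Tppp3 were selected on their measured fall after ozone, among the largest in the table. The other 8 were set beside the pair to ask whether it moved with them. The differences between exposures therefore describe Dnah11 and Tppp3 and do not test them.

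RNA came from alveolar macrophages, the phagocytes that live in the airspaces, flow-sorted from the lungs of female C57BL/6NJ mice aged 8 to 11 weeks. The ozone group of 6 mice breathed 0.8 ppm ozone for 4 h a day on 4 days in a row, and the control group of 6 mice breathed filtered air. Lungs were taken 3 days later. Sorting ran in 2 batches with 3 mice of each group in each, and nothing else in the labels separates the groups. RNA integrity numbers lay between 8.9 and 9.7, and relative sequencing depth, read from the size of 1 read in the table, lay between 0.872 and 1.22. All 12 of 12 alveolar macrophage markers lay, in every mouse, above any minimum shared by mice of its batch. So did 17168 of the 19633 genes tested. A lone mouse without a read would pass too, and absolute levels are not kept in the deposited values. Of the 12 markers, 4 were called, against 4.25% of all genes tested, and 8 were lower. Adgre1 and Krt79 of that list fell, by 0.30 (SE 0.047, limma adjusted p = 0.00291) and by 0.35 (SE 0.076, adjusted p = 0.0177), calls lost under 2 and 4 of 24 alternative settings. Chil3 and Car4 were higher by 0.25 (SE 0.060, limma adjusted p = 0.032) and by 0.32 (SE 0.084, adjusted p = 0.046), and these 2 calls were lost under 12 and 15 of them. Marco, named after its values were seen, had the largest difference of the list, 0.58 (SE 0.19, limma adjusted p = 0.108). Its filtered-air values ran from -0.95, in mouse 4, through a median of 0.14 to 0.52. After ozone they ran from 0.43 to 0.78, so the groups overlapped.

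A motile cilium beats when dynein motors on one microtubule doublet walk along the next. Outer dynein arms set the beat frequency and inner arms shape the stroke; a molecular ruler fixes their spacing, and the transcription factor Foxj1 switches on the genes for the whole machine in multiciliated cells. Dnah11 encodes an outer-arm heavy chain, and its loss causes primary ciliary dyskinesia in people. Tppp3 encodes a small protein that binds and bundles microtubules and is abundant in ciliated airway cells. Alveolar macrophages bear no motile cilia.

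In the mouse genome (GRCm38, the mm10 build named by the submitters, GENCODE M21), Dnah11 spans chr12:117877982-118199043 on the minus strand, and its longest transcript has 82 exons and 14072 bases. Tppp3 spans chr8:105467493-105471526 on the minus strand, with 4 exons and 1396 bases. The 3' end of Dnah11 overlaps that of Cdca7l, which runs on the opposite strand, by 725 bases, of which 642 are exonic in both genes. The library kit marked strand, but whether the counting used it is not given in the sources used here, so reads from those bases cannot be assigned with certainty. Of the 14023 words of 50 bases in the Dnah11 transcript, 4.92% also occur in a transcript of another gene on either strand and 0.677% on the same strand. For Tppp3 the share was 0.742% on either strand, so little of either transcript is shared.

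RefSeq (GRCm38.p6) promoters were at hand for 8 of the 10 genes, and the 250 bases upstream of the start were read for each. They were searched on both strands for letters of factors that act in ciliated cells or macrophages: GTTGCC, the half-site of RFX factors; its longer form GTTGCCA, also an RFX motif; GTAAACA, a forkhead motif; and GAGGAAG, a PU.1 motif. GTTGCC was found in 1 of the 8 promoters, that of Dnah10, and in 10.4% of 32851 promoters of the same length. GTTGCCA, which contains GTTGCC, was in 0 of the 8 and in 3.66% of all. GTAAACA was in 0 of the 8 and in 3.17% of all, and GAGGAAG in 0 of the 8 and in 10.6% of all. The promoter of Dnah11 (chr12:118199044-118199293, minus strand), the dynein gene that moved, is shown beside that of Dnah10 (chr5:124724835-124725084, plus strand), the only dynein promoter of the 8 with a match, marked in capitals.
Dnah11: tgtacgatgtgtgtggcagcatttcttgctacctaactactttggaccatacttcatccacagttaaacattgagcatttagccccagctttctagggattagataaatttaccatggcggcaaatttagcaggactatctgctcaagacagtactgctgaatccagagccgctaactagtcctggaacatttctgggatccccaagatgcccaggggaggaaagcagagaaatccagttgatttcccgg
Dnah10: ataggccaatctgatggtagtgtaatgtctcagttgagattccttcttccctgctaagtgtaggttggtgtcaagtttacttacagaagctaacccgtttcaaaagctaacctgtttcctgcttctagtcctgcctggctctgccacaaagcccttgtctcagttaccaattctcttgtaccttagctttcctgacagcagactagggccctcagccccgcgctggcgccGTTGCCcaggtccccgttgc
The match in Dnah10 begins 20 bases before the start, and the Dnah11 window holds none of these strings. Only exact strings were searched, so other forms of these motifs were not looked for in any of the 8 promoters.

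Each value is a variance-stabilized log2 expression value, and the mean of the filtered-air mice is 0 in every gene, so a value is a difference from that mean. The scale is compressed where reads are few. From the size of 1 read in these libraries, a rise from 5 to 10 reads moves a value by 0.099, a rise from 100 to 200 reads by 0.41 and a rise from 1000 to 2000 reads by 0.81. In bulk samples such as these, fewer cells that carry a transcript and less transcript per cell cannot be told apart.

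Dnah11 had the second largest fall among the 19633 genes. In filtered air its values ran from -0.35 through a median of 0.0021 to 0.24, and after ozone from -1.31 through a median of -1.001 to -0.79. All 6 ozone mice lay below all 6 filtered-air mice, with 0.44 between the nearest of them, ozone mouse 3 and filtered-air mouse 3. The mean was -1.02 ± 0.20 (SD, n = 6) after ozone against 0 ± 0.23 (SD, n = 6) in filtered air, a fall of 1.02 (SE 0.11). Read as an uncompressed log2 difference this estimate is 2.03-fold, with the error given, and it understates the fold wherever the scale is compressed.

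Tppp3 had the sixth largest fall. Its values ran from -0.27 through a median of -0.069 to 0.33 in filtered air, and from -1.01 through a median of -0.84 to -0.51 after ozone. Again no ozone mouse reached the filtered-air range, and the nearest, ozone mouse 5, lay 0.24 below it. The mean was -0.81 ± 0.19 (SD, n = 6) against 0 ± 0.25 (SD, n = 6), a fall of 0.81 (SE 0.11). Read as an uncompressed log2 difference that estimate is 1.75-fold, with the same reserve.

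In each sort batch the highest mouse, a filtered-air mouse, held at least 136 reads of either transcript by the bound below. The read level of the other mice is not known. In sort batch 2 the highest mouse for Dnah11, filtered-air mouse 6, lay 1.53 above the lowest, ozone mouse 1. If ozone mouse 1 held no read, filtered-air mouse 6 held 242 reads, and any reads in ozone mouse 1 raise that number. The same bound for Dnah11 in batch 1 was 142 reads, and for Tppp3 it was 136 reads in batch 1 and 143 in batch 2. For the other 8 genes the bound lay between 2.11 reads (Dnah12, batch 1) and 58.3 reads (Dnah2, batch 2), which leaves their true level unknown.

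**Figure D1:**
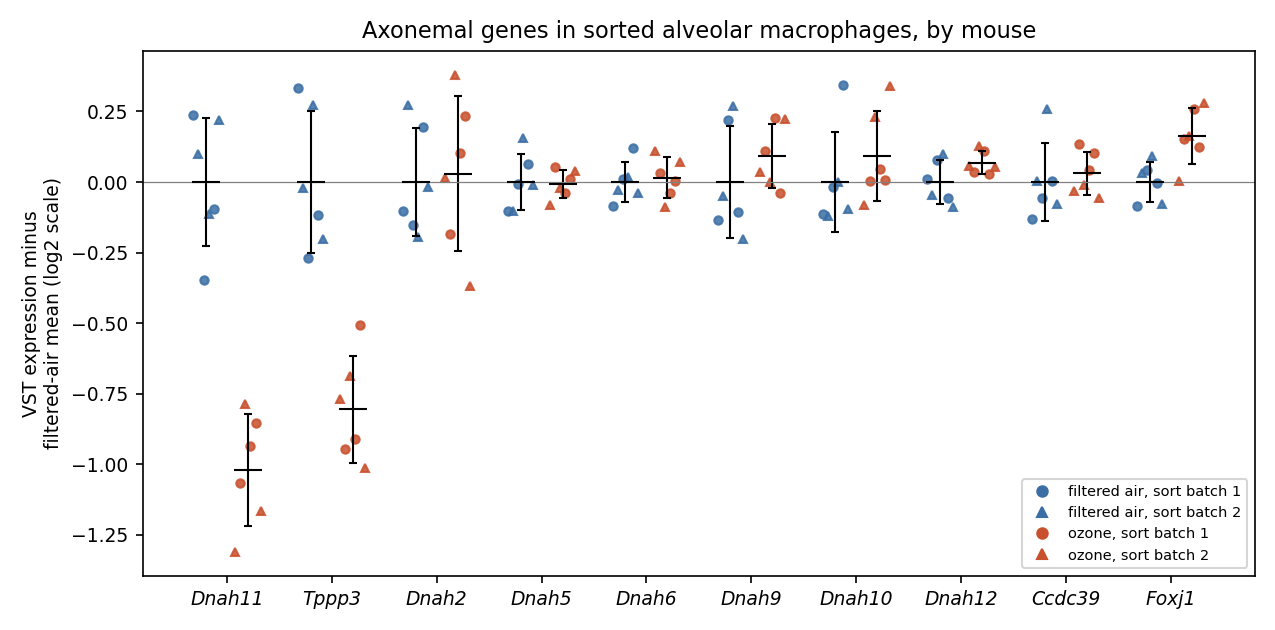
Expression of the 10 genes in each mouse, as the deposited log2 value relative to the filtered-air mean; points are mice (circles, sort batch 1; triangles, sort batch 2; blue, filtered air; red, ozone), and black marks give the mean and SD of 6 mice. In Dnah11 and Tppp3 every ozone mouse lies below every filtered-air mouse, and in the other 8 genes the groups overlap.

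The other outer-arm heavy chains showed no difference of that size. Dnah5, the heavy chain that pairs with Dnah11 near the base of airway cilia and with Dnah9 towards their tip, ran from -0.10 through a median of -0.0091 to 0.16 in filtered air and from -0.080 through a median of -0.0051 to 0.052 after ozone. The ozone values lay wholly inside the filtered-air range, and the difference was -0.0059 (SE 0.048, 95% interval -0.11 to 0.096). Dnah9 ran from -0.20 through a median of -0.077 to 0.27 in filtered air and from -0.038 through a median of 0.073 to 0.23 after ozone. It was 0.093 higher after ozone (SE 0.083, interval -0.084 to 0.27), with overlapping groups.

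Among the inner arms, Dnah2 and Dnah10 encode the paired heavy chains of the one inner arm with a double head. Dnah2 ran from -0.19 through a median of -0.060 to 0.27 in filtered air and from -0.37 through a median of 0.059 to 0.38 after ozone, so the ozone mice spread beyond the controls at both ends. Its difference was 0.030 (SE 0.12, interval -0.22 to 0.28). Dnah10 ran from -0.12 through a median of -0.057 to 0.34 in filtered air and from -0.082 through a median of 0.027 to 0.34 after ozone, and its difference was 0.091 (SE 0.086, interval -0.094 to 0.28). The 2 single-headed inner-arm chains were as flat. Dnah6 differed by 0.015 (SE 0.045, interval -0.081 to 0.11), with values from -0.085 to 0.12 in filtered air and from -0.088 to 0.11 after ozone. Dnah12 differed by 0.069 (SE 0.041, interval -0.019 to 0.16), and all 6 ozone mice lay between 0.030 and 0.13, inside or just above the filtered-air range of -0.088 to 0.10.

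Ccdc39, which with Ccdc40 forms the ruler that spaces the arms, ran from -0.13 to 0.26 in filtered air and from -0.055 to 0.13 after ozone, a difference of 0.030 (SE 0.060, interval -0.099 to 0.16). Its value is less secure than the others, since 29.6% of the 50-base words of its transcript occur in Ttc14, which overlaps it on the opposite strand and differed by 0.017 (SE 0.061). Foxj1 ran from -0.085 through a median of 0.014 to 0.093 in filtered air and from 0.0030 through a median of 0.16 to 0.28 after ozone. It had the largest difference of the 8, 0.16 (SE 0.051, interval 0.055 to 0.27), and 5 of 6 ozone mice lay above every filtered-air mouse, but it was not called. Without ozone mouse 1 the difference of Foxj1 was 0.20 (SE 0.045). That is larger for its error than Dnali1, 0.18 (SE 0.043, limma adjusted p = 0.0347) in the same fit, so Foxj1 also passed there. At the threshold used throughout, a limma adjusted p under 0.05 over all genes tested, 2 of the 10 genes were called, Dnah11 and Tppp3, both lower; 1.84% of all genes tested were called lower and 4.25% in either direction. The groups failed to overlap in the same 2 genes, against 1.58% of all genes tested in that direction and 3.53% in either. The choice of genes used this contrast, so these counts are given without a reading. Both calls were lost under the variance trend and in batch 2 alone, and that of Tppp3 also in batch 1 alone.

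The distance between the pair and the rest was seen in every ozone mouse. The mean of the 8 other genes lay between -0.093 and 0.088 in filtered-air mice and between 0.0039 and 0.098 in ozone mice. Dnah11 minus that mean ran from -0.36 through a median of -0.031 to 0.33 in filtered air and from -1.31 through a median of -1.07 to -0.88 after ozone. Tppp3 minus that mean ran from -0.28 through a median of -0.070 to 0.43 and from -1.09 through a median of -0.88 to -0.57. Dnah11 and Tppp3 thus stood apart from the other 8 genes in 6 of 6 ozone mice, beyond the range of the filtered-air mice. A read limit applies to this contrast. At 10 reads a halving would move a value by only 0.099, which lies within the intervals of Dnah2, Dnah5 and Ccdc39, and at fewer reads it would move less and could lie within those of Dnah6, Dnah9 and Dnah10. Whether any of these genes had so few reads is not known; the read bounds, which are for the highest mouse of a batch, reached 58.3 in Dnah2, 18.4 in Dnah10 and 18.2 in Dnah9.

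**Figure D2:**
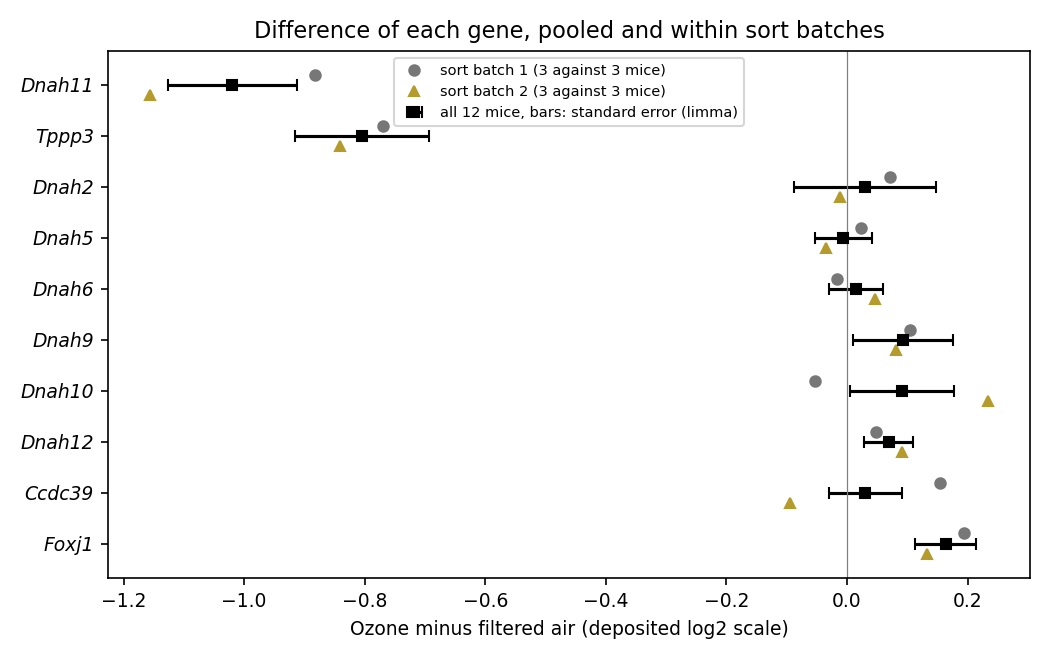
Ozone minus filtered air for the 10 genes on the deposited log2 scale; squares are the limma estimate over 12 mice with its standard error, and circles and triangles are the differences within sort batches 1 and 2. Dnah11 and Tppp3 lie near -1.02 and -0.81 and on the same side in both batches, while the other 8 genes lie between -0.0059 and 0.16.

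The wider axoneme was then examined through 6 lists of further genes. Of 63 listed genes 59 were tested, and 0 were called in limma, against 4.25% of all genes tested, and 5 had an unadjusted p under 0.05, as did 16.7% of all genes tested. Their median difference was 0.021, against -0.0033 over all genes tested, and 41 were higher and 18 lower. The values ran from -0.19 in Dnah8 to 0.15 in Cfap46, a radial spoke and central pair gene, and Dnah11 and Tppp3 lay below all of them on this scale. Few reads would limit how far these genes could fall: a loss of all of 10 reads moves a value by -0.34, and of all of 100 reads by -1.05. The read bounds, computed as for Dnah11 and taking the larger batch, ran from 1.41 to 40.1 and were under 10 in 37 of the 59 genes. These are lower bounds, so whether a fall as large in fold as that of Dnah11 was detectable in them is not known. Without ozone mouse 1 the count became 1, with Dnali1 higher by 0.18 (SE 0.043, limma adjusted p = 0.0347). The 4 genes not tested were Nme8, Dnah14, Rsph6a and Dnaaf6, listed as Pih1d3, which had reads above the minimum in 0, 5, 1 and 0 mice.

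By structure, the outer-arm list had a median of -0.045 over 6 genes, with 5 lower. Dnah8, an outer-arm heavy chain known from sperm, had the smallest p of that list at -0.19 (SE 0.092, limma adjusted p = 0.335). The inner-arm list had a median of 0.033 over 9 genes, led by the light intermediate chain gene Dnali1 at 0.14 (SE 0.050, limma adjusted p = 0.158). The docking list had a median of 0.015 over 6 genes, with Ccdc114 at 0.061 (SE 0.043, adjusted p = 0.542). The ruler and nexin-dynein regulatory complex, which links neighbouring doublets, had a median of 0.024 over 10 genes, and 4930452B06Rik had the smallest p at -0.059 (SE 0.036, limma adjusted p = 0.466). Radial spoke and central pair genes had a median of 0.066 over 14, with Spag17 at 0.13 (SE 0.054, adjusted p = 0.242). Dynein arm assembly factors, the cytoplasmic helpers that fold and load the arms, had a median of 0.046 over 14 genes, 12 of them higher, with Ruvbl2 at 0.13 (SE 0.045, limma adjusted p = 0.148).

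Counted as a family, 14 of the 15 axonemal dynein heavy chain genes in the table were tested, and Dnah11, whose fall chose it, was the 1 called, against 4.25% of all genes tested. The 13 others lay between -0.19 (Dnah8) and 0.093 (Dnah9). Dnah7a, Dnah7b and Dnah7c are near copies of one another, and how their shared reads were divided is not given in the sources used here.

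**Figure D3:**
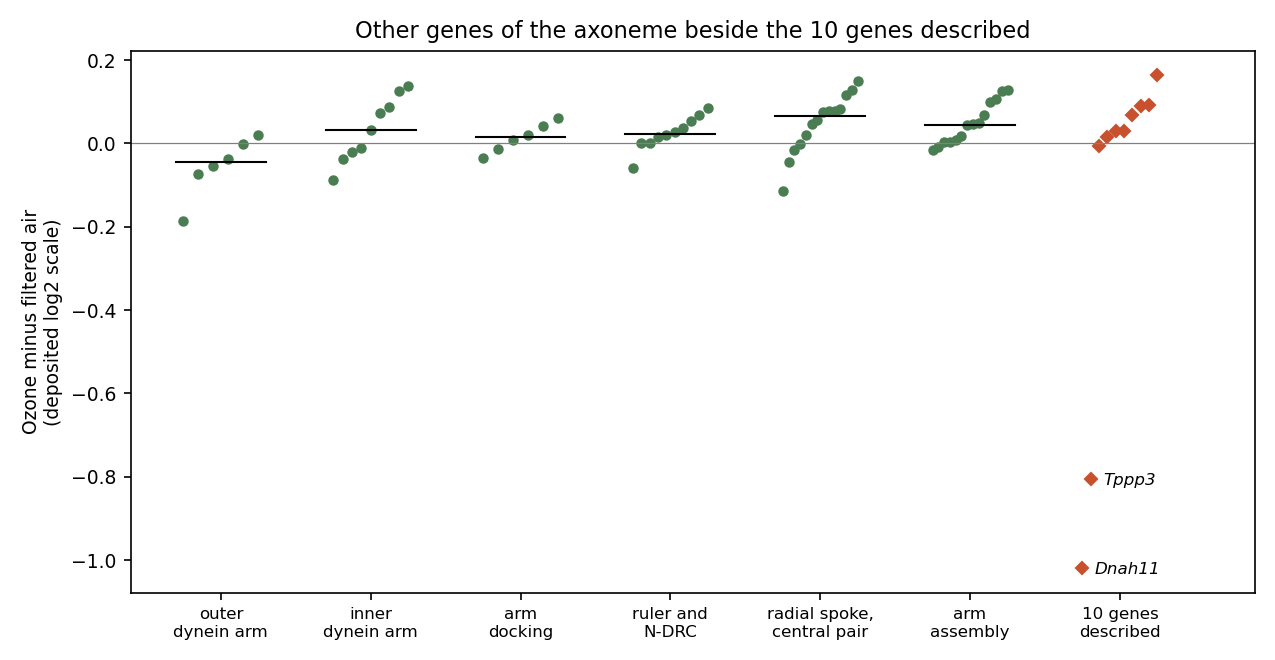
Ozone minus filtered air on the deposited log2 scale for 59 axonemal genes in 6 lists (green, 1 point a gene; black bars, list medians) and for the 10 genes described (red diamonds). The 59 genes lie between -0.19 and 0.15, and Dnah11 and Tppp3 lie below them.

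Other microtubule and cilium genes were given by list. Cytoplasmic and intraflagellar dynein, the motors that haul cargo along microtubules, had 0 of 21 genes called in limma, 3 at an unadjusted p under 0.05 (16.7% of all genes tested), and a median of -0.0031. The lowest p was that of Dync1li2, at -0.14 (SE 0.044, limma adjusted p = 0.0878). It was called under 1 of 24 alternative settings, without filtered-air mouse 4, at -0.17 (SE 0.043, limma adjusted p = 0.0461). Tubulins, tubulin-modifying enzymes and relatives of Tppp3 had 2 of 19 called, in opposite directions, against 4.25% of all genes tested. In that list 6 had an unadjusted limma p under 0.05, against 16.7% of all genes tested. The groups did not overlap in 2, against 3.53% of all. The beta-tubulin gene Tubb2a fell by 0.25 (SE 0.045, limma adjusted p = 0.00728) and the gamma-tubulin gene Tubg1, whose product nucleates microtubules, rose by 0.26 (SE 0.050, adjusted p = 0.0103), and each call was lost under 3 of 24 alternative settings, quantile normalization and each batch alone. Tppp, the founding relative of Tppp3, was chosen for mention after its values were seen. It ran from -0.44 through a median of 0.0084 to 0.40 in filtered air and from -0.61 through a median of -0.39 to -0.20 after ozone, a difference of -0.38 (SE 0.11, limma adjusted p = 0.0788). Its groups overlapped because filtered-air mouse 3 lay at -0.44. Among regulators of ciliogenesis 1 of 10 was called, against 4.25% of all genes tested: Rfx1, which rose by 0.22 (SE 0.050, limma adjusted p = 0.0248), and its call was lost under 11 of 24 alternative settings.

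Ciliated airway cells are the cells that normally express these genes together. Of 11 tested markers of that cell type, 2 were called in limma, both higher after ozone, against 2.41% of all genes tested in that direction. Mlf1 rose by 0.20 (SE 0.037, limma adjusted p = 0.00694), with groups that did not overlap, against 1.96% of all genes in that direction, and its call was lost under 3 of 24 alternative settings. Lrrc23 was higher by 0.27 (SE 0.071, limma adjusted p = 0.0482), a call lost under 17 of 24 alternative settings. The median of the 11 markers was 0.078, and their mean lay between -0.050 and 0.098 in filtered-air mice and between 0.035 and 0.15 in ozone mice. Of the markers, 10 stood above the shared minimum in all 12 mice, as did 17168 of the 19633 genes tested. The mean of the markers in ozone mice lay within or above the range of the controls. Read bounds of the 2 called markers were low, from 6.44 (Mlf1, batch 2) to 30.4 (Lrrc23, batch 2). A fall in fold like that of the pair may therefore not have been detectable in them. The part of ciliated cell RNA in the values of Dnah11, Tppp3 and the other 8 genes was not tested.

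Markers of further cells that a lung sort can carry are given for the same mice. No gene was called among 6 club, 8 alveolar type 2, 6 alveolar type 1, 6 endothelial, 6 fibroblast, 6 T and NK, 5 B and 6 dendritic cell markers in limma, with 0, 1, 0, 1, 2, 0, 3 and 1 at an unadjusted p under 0.05, against 16.7% of all genes tested. The smallest p-values were those of Scgb3a2, Napsa, Clic5, Ramp2, Dcn, Nkg7, Cd79a and Clec9a. Under single alternatives Cd79a and Napsa were each called in 2 of 24 and Scgb3a2 in 1, with lowest limma adjusted p-values of 0.0395, 0.0272 and 0.0480. Endothelial markers were lower in 6 of 6 genes, with a median of -0.14. B cell markers had the lowest median, -0.26, with 5 of 5 lower and a mean between -0.23 and 0.38 in filtered air and between -0.44 and -0.077 after ozone. Of 5 neutrophil markers 1 was called, against 2.41% of all genes tested in that direction: Cxcr2, higher by 0.79 (SE 0.091, limma adjusted p = 0.000451; call lost under the variance trend and in each batch alone), while 3 of the 5 were lower, to -0.27 in Csf3r, and the median of that list was -0.015. The part of B cell or endothelial RNA in the falls was not tested.

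The falls were examined within each sort batch. Dnah11 fell by 0.88 in batch 1 and by 1.16 in batch 2, and Tppp3 fell by 0.77 and by 0.84. The effect of ozone on Dnah11 in batch 2 minus that in batch 1 was -0.27 (SE 0.21), and on Tppp3 it was -0.072 (SE 0.23); limma's interaction test gave an adjusted p of 1.00 for both, and 0% of all genes tested passed, with 510 at an unadjusted p under 0.05. Of the other 8 genes, Dnah2, Dnah5, Dnah6, Dnah10 and Ccdc39 lay on opposite sides of 0 in the 2 batches, and Ccdc39 and Dnah10 differed most between them. Ccdc39 differed by 0.15 in batch 1 and by -0.094 in batch 2 (interaction -0.25, SE 0.11), and Dnah10 by -0.052 and by 0.23 (interaction 0.29, SE 0.16), and neither passed the adjusted interaction test in limma (adjusted p = 1.00).

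Variation between mice of one exposure was not used to choose the genes and could be tested. Dnah11 and Tppp3 correlated with r = 0.38 (Spearman rho = 0.49, exact permutation p = 0.439 and 0.356, n = 6) in filtered air and with r = 0.51 (rho = 0.60, exact permutation p = 0.281 and 0.242, n = 6) after ozone. Without the 2 mice farthest from the Dnah11 median, r became -0.65 in filtered air and 0.85 after ozone, so the filtered-air value rested on those mice. Dnah11 and the mean of the ciliated cell markers ran in opposite directions in filtered air, with r = -0.75 (rho = -0.94, exact permutation p = 0.131 and 0.0167, n = 6), and -0.64 without those 2 mice. After ozone the same relation had r = 0.27 (rho = 0.20, exact permutation p = 0.611 and 0.714, n = 6), and -0.30 without 2 mice. Tppp3 and the ciliated cell markers had r = 0.089 (rho = -0.26, exact permutation p = 0.925 and 0.658, n = 6) in filtered air and r = -0.36 (rho = -0.31, exact permutation p = 0.506 and 0.564, n = 6) after ozone, and -0.70 and -0.43 without 2 mice. Over the 6 relations the smallest two-sided adjusted p was 0.733 for Pearson and 0.1 for Spearman in the exact permutation test, where 0.00278 is the smallest two-sided p that 1 relation over 6 mice allows, so none passed.

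The order of the mice was also read. Filtered-air mouse 4 was the highest of its group in 5 of the 8 other genes, Dnah5, Dnah9, Dnah12, Ccdc39 and Foxj1, and in the ciliated cell markers, while its Dnah11 value was -0.11. Its Tppp3 value, 0.27, was the second highest of the group. Filtered-air mouse 1 was the highest of its group in both Dnah11 (0.24) and Tppp3 (0.33), and in 0 of the 8, and was the lowest in 3 of them. After ozone, mouse 3 had the highest mean of the 8 genes (0.098) and the highest Dnah11 value (-0.79), and mouse 1 had the lowest of both (0.0039 and -1.31). Ozone mouse 6 was the lowest in Tppp3 (-1.01) and the second lowest in Dnah11 (-1.17), and had the highest mean of the ciliated cell markers. These are the orders of single mice and carry no test.

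**Figure D4:**
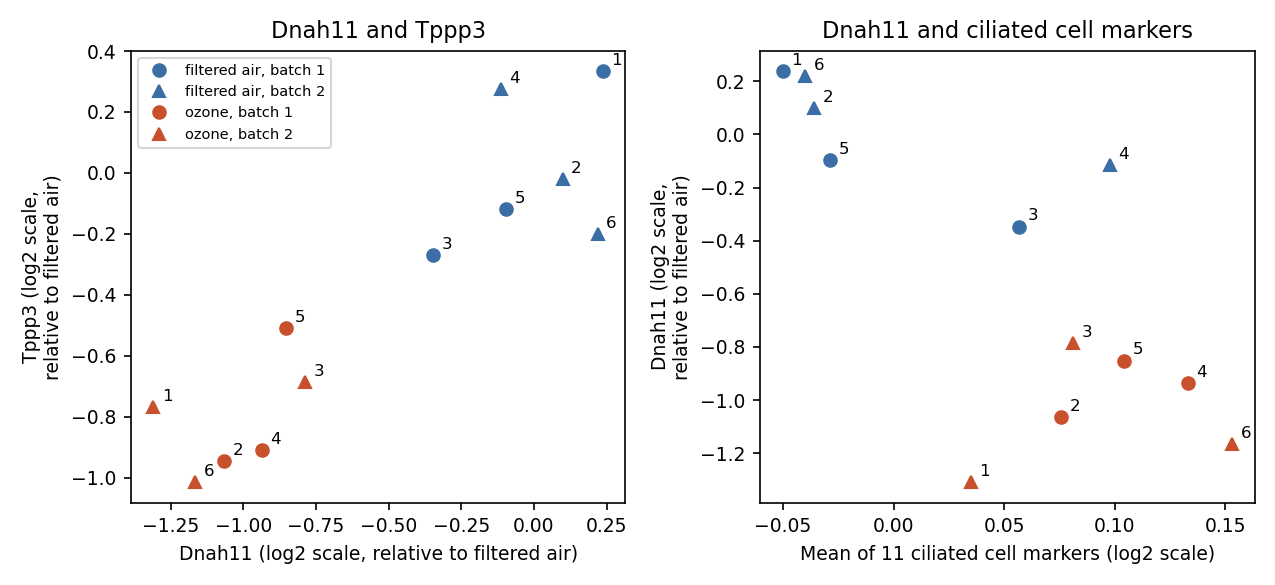
Left, Tppp3 against Dnah11 in each mouse; right, Dnah11 against the mean of 11 ciliated cell markers; all values on the deposited log2 scale, numbers are replicate numbers, blue is filtered air and red ozone, circles are sort batch 1 and triangles sort batch 2. The exposure groups separate along Dnah11 and Tppp3 and overlap along the ciliated cell markers.

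The genes beside Dnah11 and Tppp3 were read for the same mice. Cdca7l, which overlaps the end of Dnah11, ran from -0.14 to 0.17 in filtered air and from 0.10 to 0.21 after ozone, a difference of 0.16 in the opposite direction (SE 0.055, limma adjusted p = 0.139). Sp4, the nearest protein-coding gene on the other side of Dnah11 at 35889 bases, differed by 0.027 (SE 0.059, limma adjusted p = 0.881). Beside Tppp3, Lrrc36 at a distance of 3406 bases differed by 0.0051 (SE 0.044, limma adjusted p = 0.974). Zdhhc1, at 896 bases, differed by -0.083 (SE 0.055, limma adjusted p = 0.505). The read bounds of these 4 genes were low, from 1.46 (Lrrc36, batch 1) to 12.2 (Cdca7l, batch 1), so a fall in fold like that of the pair may not have been detectable in them.

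The genes whose values over the 12 mice were most like those of the pair were other genes that fell. The 5 highest Pearson correlations with Dnah11 were those of Hps6 (0.96), Setd7 (0.96), Zc3hav1 (0.95), Clcf1 (0.95) and Vezf1 (0.94). With Tppp3 they were those of Adgre1 (0.98), the gene of the macrophage antigen F4/80, Tnfsf13b (0.97), which encodes the B cell factor BAFF, Zfp429 (0.97), Capn2 (0.97) and Crip1 (0.96). Dnah11 and Tppp3 correlated with each other at 0.90, which was rank 31 for Dnah11 and rank 39 for Tppp3. These correlations span both exposures, so a shared difference between the groups raises all of them. Within filtered air the 5 genes like Dnah11 had r from 0.75 to 0.95 and within ozone from 0.16 (Zc3hav1) to 0.81 (n = 6 each). The 5 like Tppp3 had r from 0.95 to 0.99 and from 0.63 to 0.78. The genes were picked on these same mice as the highest of all genes tested, which raises the values within groups too, so they are a description only. Crip1 had the largest difference of these 10 genes, -0.85, followed by Tnfsf13b with -0.59 and Clcf1 with -0.57. The other 7 lay between -0.30 and -0.15.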

How the data were processed

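The labels describe 12 polyA RNA libraries, 6 per exposure, from separate mice. The deposited file holds log2 values; per the file's name, the authors stabilized the variance and then corrected for batch. The submitters' processing notes name cutadapt, STAR 2.7.7a, Salmon 1.5.2, DESeq2 1.26.0, R 3.6.0, limma 3.42.2 and mm10; annotation and strand setting are not given in the sources used here. The filtered-air mean and the difference between sort batch means are 0 in every gene, so abundance was not kept.

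Genes with at least 6 of 12 mice above the shared minimum of their batch (tolerance 1e-06), the level of no read, were kept. A mouse alone at the lowest value counted as above it. Differences were fitted with limma 3.58.1 in R 4.3.3, with sort batch as covariate and Benjamini-Hochberg adjustment over 19633 genes, after a test on simulated data. Read sizes came from the first step above the shared minimum and an inverse hyperbolic sine curve, and the total depth is unknown. Correlations used exact permutation tests in SciPy 1.17.1. Genes named are the 10 chosen, called genes or the smallest p of each list, neighbours of the pair and the 5 most alike. Others, among them Cfap46, Csf3r, Marco, Tppp and the Dnah7 copies, were named outside that rule. Of the listed names, 16 were matched under older symbols and 1 was unmatched. Genes and lists were chosen with earlier results of these data known. Replicate numbers were not used as pairs, since same numbers mark different animals; whether mice of a group were housed or exposed together is not stated.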

Additional observations from a re-analysis of the deposited data

Results flagged for a closer look

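Among 82 combinations of exposure group and measure, 5 held an animal set apart from its own group by Dixon's ratio, against 4.1 expected at 1 in 20. Of these, 2 concerned the 10 genes described. Filtered-air mouse 5 stood at 0.34 in Dnah10, and filtered-air mouse 4 stood at 0.26 in Ccdc39. The others were filtered-air mouse 1 in Dnali1, at -0.13, ozone mouse 4 in Spag17, at 0.34, and filtered-air mouse 4 in Cd79a, at 0.41. Dnah11 and Tppp3 held no such mouse in either group.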

How the results depend on the processing

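Dnah11 and Tppp3 were lower under all 24 alternatives, Dnah11 from -1.16 (batch 2 alone) to -0.80 (quantile normalization) and Tppp3 from -0.87 (without ozone mouse 5) to -0.62 (quantile normalization). The variance trend ended both calls (limma adjusted p = 0.403 and 0.104), batch 2 alone ended both (0.0636 and 0.0885) and batch 1 alone that of Tppp3 (0.0937). With the filtered-air mean at 0, a gene's average here is set by its own response to ozone, and the trend is fitted on that average. Of 240 results for the 10 genes, 237 moved by less than the spread between mice. The exceptions were Dnah11 after quantile normalization and Ccdc39 in batches 1 (0.15) and 2 (-0.094). The 834 genes called became 178 after quantile normalization, 90 in batch 1, 0 in batch 2, 363 with the robust variance trend, added after seeing the data, and 538 to 751 without single mice (lowest without filtered-air mouse 1). The axonemal count outside the 10 genes was 0 to 1 without single mice and 0 under the other alternatives, with 0 to 9 genes at an unadjusted p under 0.05. Leaving out the mice with the highest ciliated cell markers, filtered-air mouse 4 and ozone mouse 6, was also added later, and kept both calls. The pair was chosen on this contrast, so calls kept under any alternative describe it and do not test it. For the interaction, 0 genes passed in each of the alternatives run. The Tppp3 interaction changed sign without passing after quantile normalization (0.012) and without single mice, over which it ran from -0.25 to 0.068: filtered-air mice 3 (0.054) and 4 (0.056), and ozone mice 5 (0.068) and 6 (0.024). Nkg7 changed sign in batch 1 (0.0019) and without single mice (-0.14 to 0.000268, the latter without filtered-air mouse 4), and Scgb3a2 in batch 2 (-0.038). Without single mice, the correlation of Dnah11 with Tppp3 ran from -0.035 to 0.69 in filtered air and from 0.33 to 0.83 after ozone, that of Dnah11 with ciliated cell markers from -0.91 to -0.69 and from -0.50 to 0.70, and that of Tppp3 with the markers from -0.62 to 0.50 and from -0.67 to -0.016; the filtered-air value for Tppp3 was -0.039 after quantile normalization. For these changes the cause was not tested. Same-numbered mice correlated in their deviations from the group means at -0.0026 to 0.28, 4 of 6 above 0.1, the threshold set for pairing. Only for numbers 2 and 4 was the same number the best match in both directions. The numbers were not taken as pairs because same numbers mark different animals. A fit with the replicate block called 853 genes, no axonemal gene outside the 10 among them, and kept both calls. With the block Scgb3a2 (adjusted p = 0.0480, limma) and Cd79a (0.0395) were also called.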
